A study of Mus musculus with 6 samples.

Results

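The genes described here are those of gastric chief cells and gastric digestive enzymes: *Pgc*, *Pga5*, *Gif*, *Bhlha15*, *Lipf*, *Ctse* and *Chia1*. They were chosen by name from the probe annotation of the arrays, and every probe that was not a control was kept. This gave 8 probes for 7 genes, out of 55681 probes under 34298 gene names. *Pgc* had 2 probes and each of the other genes had 1, and each probe was printed as a single spot. The arrays list intrinsic factor under its older symbol *Gif* (now *Cblif*) and acidic mammalian chitinase as *Chia1*.

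Chief cells lie at the base of the glands of the stomach corpus and secrete inactive precursors of digestive enzymes, chiefly pepsinogens, which are aspartic peptidases that the acid of the stomach activates. In the mouse they also make gastric intrinsic factor, the carrier of vitamin B12 (cobalamin), which in humans comes from parietal cells. They arise in part from mucous neck cells, and the transcription factor BHLHA15 (MIST1) builds their apparatus of secretory granules. Cathepsin E, a relative of pepsin that stays inside the cell, is not a chief cell marker and is made by surface mucous and other gastric epithelial cells.

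Gene expression was measured on 6 single-color Agilent arrays of mouse organoids, three-dimensional epithelial cultures, 3 of the stomach and 3 of the esophagus. The labels number the mice 1, 2 and 4 in both tissues, give passage 0 and mark every sample as Control. Organoids were harvested on day 8, except for the stomach organoids of mouse 4, harvested on day 7. The comparison asks which genes differ between columnar organoids of the stomach and squamous organoids of the esophagus.

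The labels speak only of defined media, and what follows is the study's general description of its cultures. Stomach organoids were started from isolated glands of the corpus and grown with WNT3A and R-spondin1 conditioned media and gastrin. Esophageal organoids were started from dissociated cells and grown with forskolin and without WNT3A, R-spondin1 or gastrin. Both media held EGF, noggin, FGF-10, nicotinamide, N-acetylcysteine, an inhibitor of the TGF-β receptor kinase and a ROCK inhibitor. If the organoids on the arrays were grown this way, tissue, starting material and medium changed together and cannot be told apart in any comparison below. The labels give neither strain nor age for these mice, and no array carries tissue that was not cultured.

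The values below are the authors' log2 intensities after background correction and quantile normalization, on which a difference of 1 is a doubling. A probe is called well above background where the scanner software marks it so against its local background. Between 46.7% and 51.1% of spots that were not controls passed this mark on the stomach arrays and between 45.5% and 47.3% on the esophagus arrays, and no spot was saturated. Each probe was tested with limma over all 6 arrays, and "called" means an adjusted p (Benjamini-Hochberg, over all 55681 probes) under 0.05 with a fold of at least 1.5. Differences are stomach minus esophagus. Where a probe passed this mark on no array of the other tissue, its fold is given as a lower bound, taken against the higher of its own value and the lowest value that passed the mark on that array. Such a bound allows for background only and not for the spread between arrays. It equals the fitted fold where the probe's own values were the higher ones. A level cannot be compared between different probes. With 3 arrays against 3 an exact permutation test of 1 probe cannot go below p = 0.1.

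Of the 8 probes, 5 were called, all of them higher in stomach organoids, and these belonged to 4 of the 7 genes: *Pgc*, *Ctse*, *Gif* and *Bhlha15*. Over all probes 6.15% were called higher in the stomach and 5.84% higher in the esophagus. The other 3 probes, of *Pga5*, *Lipf* and *Chia1*, were not well above background on any of the 6 arrays. On all 5 called probes the 3 stomach arrays lay above the 3 esophagus arrays, a pattern held by 13.4% of all probes with 6 values, and the reverse, held by 15.2%, was seen on none of the 8. The median difference over the 8 probes was 4.89 on the log2 scale, and over all probes it was -0.02. No probe lay near 4.89, which falls between *Bhlha15* at 3.56 and a *Pgc* probe at 6.22 whose esophagus values were at background. In bulk organoids, fewer cells of a type and less RNA per cell cannot be told apart.

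**Figure D1:**
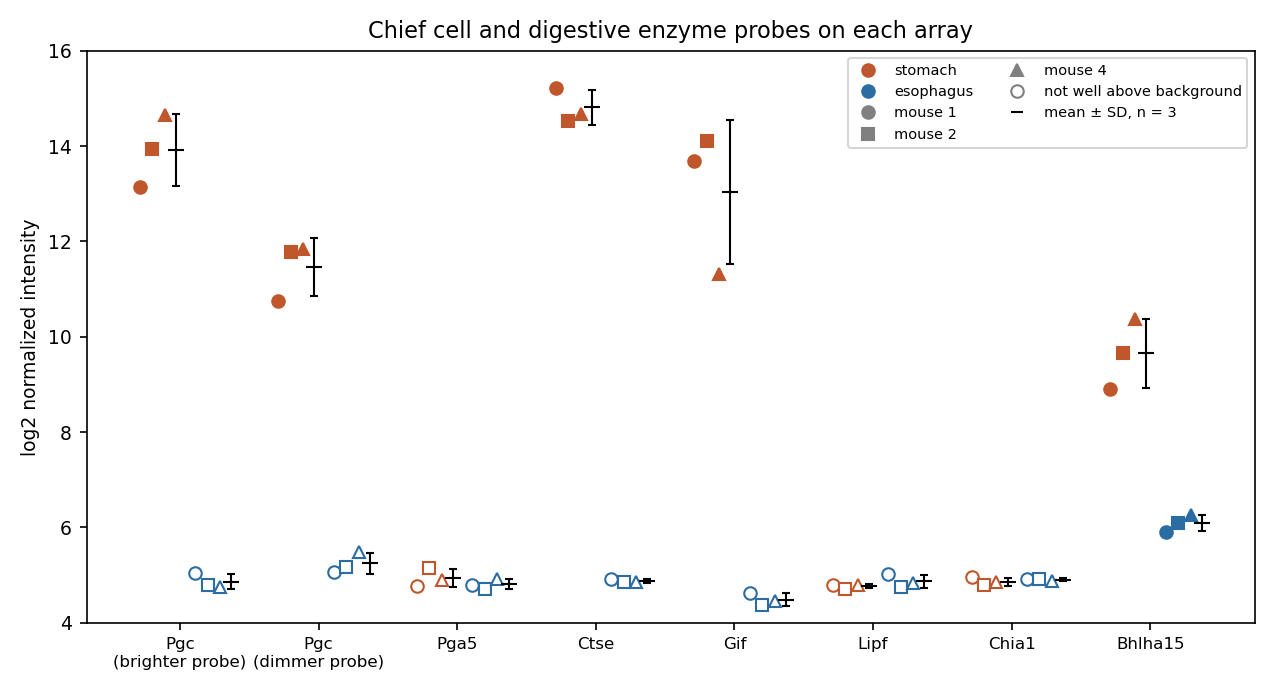
Log2 normalized intensity of each of the 8 probes on each of the 6 arrays, by tissue (color) and mouse (shape), with mean ± SD (n = 3) beside each group. Filled symbols were well above background. The stomach arrays of *Pgc*, *Ctse* and *Gif* lie at 10.76 or higher while their esophagus arrays are open symbols at 5.49 or lower, *Bhlha15* is filled in both tissues, and *Pga5*, *Lipf* and *Chia1* are open throughout.

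Of the pepsinogen genes, *Pgc* was called and *Pga5* stayed at background. *Pgc* encodes progastricsin (pepsinogen C) and *Pga5* a pepsinogen of the A group. Their probes, of 60 bases each, are shown as the arrays list them, 5′ to 3′, because the finding rests on what these oligos detect. The brighter *Pgc* probe starts at position 1159 of transcript NM_025973 and maps to chr17:47871203-47871263 (mm9). The dimmer one starts at position 778 and maps to chr17:47869392-47869451. The *Pga5* probe starts at position 993 of NM_021453 and maps to chr19:10743903-10744036, an interval of 134 bases, longer than the probe. The files do not state the strand.
Pgc, position 1159: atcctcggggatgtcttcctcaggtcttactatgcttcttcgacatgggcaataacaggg
Pgc, position 778: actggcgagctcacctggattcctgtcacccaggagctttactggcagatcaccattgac
Pga5, position 993: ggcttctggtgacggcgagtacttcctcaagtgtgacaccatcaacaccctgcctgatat

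On its brighter probe *Pgc* read 13.15, 13.94 and 14.66 in the stomach organoids of mice 1, 2 and 4. In the esophageal organoids with the same mouse numbers it read 5.04, 4.80 and 4.75. The groups were far apart and none of the esophageal readings passed the background mark. The stomach mean was 13.92 ± 0.75 (SD, n = 3) and the esophagus mean 4.86 ± 0.16 (SD, n = 3). *Pgc* was at least 532-fold higher in stomach organoids by this probe, with a fitted log2 difference of 9.05 (standard error 0.35, limma adjusted p = 2.13e-06). Over the settings the difference ran from 7.94 (offset of 50 in the background correction) to 11.93 (processed signal), so the bound holds for the main values only.

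The dimmer *Pgc* probe read 10.76, 11.78 and 11.83 in the stomach and 5.07, 5.17 and 5.49 in the esophagus. Again all esophagus values were below the mark for signal above background. The difference was 6.22 (standard error 0.30, limma adjusted p = 7.81e-06), at least 74.3-fold, and ran from 5.24 (offset of 50) to 8.34 (processed signal) over the settings. The 2 probes of the transcript thus shared direction and call.

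*Pga5* read 4.78, 5.16 and 4.90 in the stomach organoids of mice 1, 2 and 4 and 4.80, 4.71 and 4.93 in the esophageal organoids. The groups overlapped and none of the 6 readings passed the background mark. The difference was 0.13, with a 95% confidence interval from -0.24 to 0.50 and a limma adjusted p of 0.703. At this signal the interval covers only what the spot registers, and changes of a transcript below background cannot be seen.

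*Ctse* encodes cathepsin E. Its probe lies at chr1:133571990-133572049 (mm9) and starts at position 2025 of NM_007799. It read 15.23, 14.53 and 14.68 in stomach organoids and 4.92, 4.85 and 4.85 in esophageal organoids. The stomach arrays stayed within 0.70 of each other, the narrowest range of the 5 called probes, and no esophagus array passed the background mark. The difference was 9.94 (standard error 0.20, limma adjusted p = 1.11e-07), at least 980-fold higher in the stomach. It ran from 8.83 (offset of 50) to 12.76 (processed signal) over the settings, so this bound too holds for the main values only.

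*Gif* encodes intrinsic factor, which binds cobalamin for uptake in the ileum. Its probe lies at chr19:11837878-11837937 (mm9), from position 1472 of NM_008118. In stomach organoids it read 13.68 and 14.11 for mice 1 and 2 and 11.31 for mouse 4. In esophageal organoids it read 4.63, 4.36 and 4.46, with no array well above background. The groups were well apart, although the array of mouse 4 lay 2.59 below the mean of the other stomach arrays. The difference was 8.55 (standard error 0.64, limma adjusted p = 9.41e-05), at least 341-fold, and without that array it was 9.41 (limma adjusted p = 1.34e-06). Over the settings it ran from 7.18 (offset of 50) to 11.04 (processed signal).

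*Bhlha15* was the only one of the 7 genes with signal above background in both tissues. Its probe lies at chr5:144955175-144955234 (mm9), from position 3358 of NM_010800. It read 8.91, 9.66 and 10.38 in stomach organoids and 5.91, 6.09 and 6.26 in esophageal organoids, all 6 well above background. No values overlapped, and the lowest stomach array stood above the highest esophagus array. The difference was 3.56 (standard error 0.34, 95% confidence interval 2.77 to 4.35, limma adjusted p = 3.49e-04), or 11.8-fold.

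*Lipf* encodes gastric lipase, an acid-stable lipase that in some species is a chief cell product. Its probe lies at chr19:34051173-34051232 (mm9), from position 1222 of NM_026334. It read 4.80, 4.71 and 4.80 in stomach organoids and 5.03, 4.76 and 4.83 in esophageal organoids. The values overlapped, and the difference of -0.10 had a 95% confidence interval from -0.43 to 0.23 (limma adjusted p = 0.760).

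*Chia1*, the acidic chitinase that mouse chief cells secrete, had a probe at chr3:105934967-105935026 (mm9), from position 1456 of NM_023186. It read 4.95, 4.79 and 4.85 in stomach organoids and 4.92, 4.92 and 4.88 in esophageal organoids. The groups overlapped here too, with a difference of -0.04 and a 95% confidence interval from -0.36 to 0.27 (limma adjusted p = 0.898).

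The scanner intensities, before any normalization, showed the same division. On the brighter *Pgc* probe the mean spot intensity ran from 7727 to 32061 over the stomach arrays and from 25.8 to 38.3 over the esophagus arrays. On the dimmer *Pgc* probe it ran from 1638 to 4765 against 43.3 to 46.6. *Ctse* ran from 11287 to 37337 against 27.6 to 39.0, *Gif* from 3352 to 12432 against 24.6 to 31.9, and *Bhlha15* from 417 to 1786 against 68.5 to 83.8. These ranges did not touch for any called probe. The 18 spots of *Pga5*, *Lipf* and *Chia1* on the 6 arrays lay between 23.4 and 42.3, with a local background of 16 to 23 around them. Each array carries 308 negative control spots, with medians from 21.4 to 33.2. None of the 18 spots exceeded every negative control of its array. On 4 of the 18, fewer than 5% of the negative controls were as bright. For the esophagus spots of the dimmer *Pgc* probe, 0.6% to 3.2% of the negative controls were as bright, and for the brighter probe 16.2% to 58.4%.

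**Figure D2:**
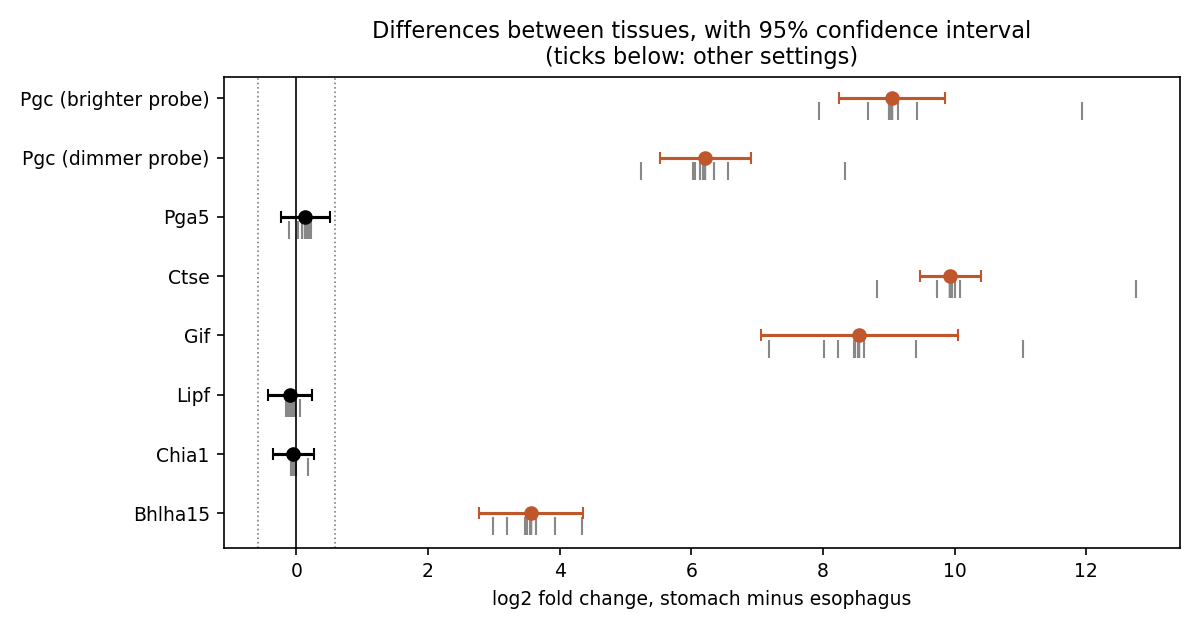
Log2 difference, stomach minus esophagus, of each of the 8 probes with its 95% confidence interval (points and bars, called probes in color). Grey ticks give the difference under other settings and dotted lines mark 1.5-fold. The 5 called probes lie at 3.56 or higher and stay to the right of the dotted line under every setting drawn, while *Pga5*, *Lipf* and *Chia1* stay between the dotted lines.

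The stomach arrays did not rank the genes alike. On the brighter *Pgc* probe and on *Bhlha15* the array of mouse 4 was the highest, 1.11 and 1.09 above the mean of the arrays of mice 1 and 2. On the dimmer *Pgc* probe the array of mouse 4 lay 0.56 above that mean, close to mouse 2 (11.83 against 11.78). On *Gif* the array of mouse 4 was the lowest. *Ctse* was highest in mouse 1, and its array of mouse 4 lay 0.19 below the mean of the other 2 arrays. Among mucous neck cell markers, *Muc6*, a gland mucin, read 7.39, 8.33 and 9.79 and was highest in mouse 4. *Muc5ac*, the mucin of surface pit cells, read 15.65, 15.03 and 13.26 and was lowest in mouse 4, as *Gif* was. *Gkn3*, another neck cell gene, was lowest in mouse 4 as well, at 16.16 against 17.16 and 17.07. Mouse 4 is also the mouse whose stomach organoids were harvested on day 7, so day and mouse cannot be told apart, and these single arrays allow no test.

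**Figure D3:**
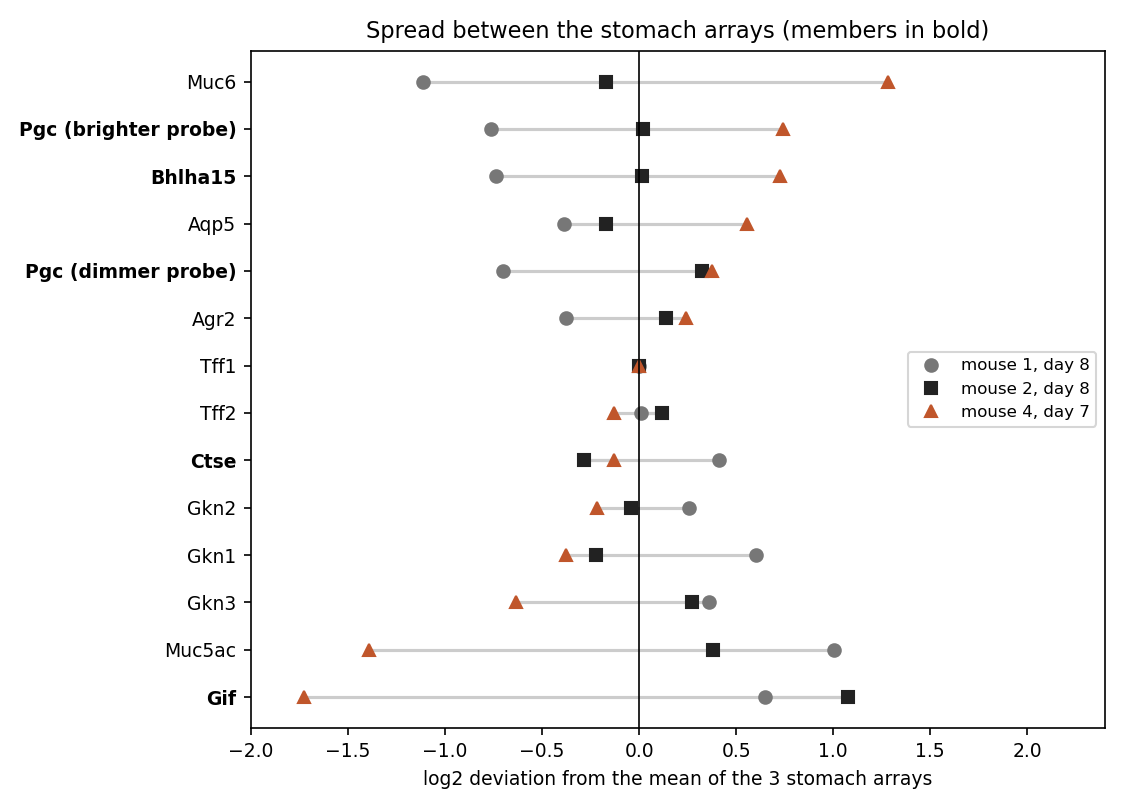
Log2 deviation of each stomach array from the mean of the 3 stomach arrays, for the 5 called probes (bold) and all listed neck and pit cell markers, sorted by the position of mouse 4. *Muc6*, *Pgc* and *Bhlha15* have mouse 4 on the right and *Gif* and *Muc5ac* have it on the left. *Tff1* had no spread: its probe read 17.88 on each stomach array, and quantile normalization gives equal ranks equal values.

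Of the 7 genes, 5 have a promoter in the RefSeq table used here (assembly GRCm38.p6, 250 bases before to 50 bases after the start of transcription). Those of *Pgc* and *Cblif* (the current name of *Gif*), which were high in stomach organoids, and of *Lipf*, which gave no signal, are printed 5′ to 3′ so that they can be compared. Capitals mark CANNTG, the E-box that factors of the class of BHLHA15 bind, and TATAAA, the TATA box. Both strands were searched. Coordinates are chr17:47726592-47726891, chr19:11747309-11747608 and chr19:33960998-33961297, all on the plus strand.
Pgc: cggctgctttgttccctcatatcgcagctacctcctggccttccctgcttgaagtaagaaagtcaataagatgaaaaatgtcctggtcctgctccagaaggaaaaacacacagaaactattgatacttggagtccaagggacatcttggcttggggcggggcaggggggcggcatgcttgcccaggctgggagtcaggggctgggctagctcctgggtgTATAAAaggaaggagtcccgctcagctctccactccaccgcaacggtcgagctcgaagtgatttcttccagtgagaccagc
Cblif: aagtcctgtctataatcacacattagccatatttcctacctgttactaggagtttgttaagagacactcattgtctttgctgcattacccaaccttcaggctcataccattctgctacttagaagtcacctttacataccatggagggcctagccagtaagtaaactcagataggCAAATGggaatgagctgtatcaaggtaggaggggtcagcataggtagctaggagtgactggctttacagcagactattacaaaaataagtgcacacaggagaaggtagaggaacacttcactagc
Lipf: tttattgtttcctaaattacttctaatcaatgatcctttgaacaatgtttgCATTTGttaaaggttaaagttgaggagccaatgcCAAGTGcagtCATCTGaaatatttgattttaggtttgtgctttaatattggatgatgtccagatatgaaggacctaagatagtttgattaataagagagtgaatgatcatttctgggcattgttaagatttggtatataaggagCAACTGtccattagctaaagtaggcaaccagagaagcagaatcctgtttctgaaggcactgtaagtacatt

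The *Pgc* promoter held no CANNTG and 1 TATAAA, at position -31. The *Cblif* promoter held 1 CANNTG, at -75, and the *Lipf* promoter held 4, the nearest to the start at -21. Of the promoters not printed, *Bhlha15* held 3 and *Chia1* held 4, and *Chia1* also had TATAAA at -43. CANNTG occurs in 72.3% of the 32851 promoters of this length in the table and TATAAA in 13.6%. No match says only that these letters are not in this window.

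The relatives of these enzymes on the arrays were taken from 14 lists of 97 genes in all, each gene by its brightest probe. Per gene name, 7.64% were called higher in the stomach and 7.04% higher in the esophagus. Of 9 aspartic peptidases other than the pepsinogens and cathepsin E, 4 were called higher in the stomach, 2 were called higher in the esophagus and 3 were not called, with a median difference of 0.70 against -0.03 over all gene names. That median was the value of *Napsa*, a gene at background, so it shows no lean of the list. *Bace2* and *Bace1*, membrane-bound peptidases, were higher in the stomach by 3.39 (standard error 0.58, limma adjusted p = 0.0072) and 1.76 (standard error 0.27, limma adjusted p = 0.0044). *Asprv1*, a peptidase of keratinizing epithelium, was higher in the esophagus: its difference was -7.51 (standard error 1.59, limma adjusted p = 0.0196). Its esophagus mean of 12.74 had an SD of 3.79 (n = 3). The call was lost without stomach array 1, stomach array 2, esophagus array 1 or esophagus array 2 (adjusted p = 0.0826, 0.0836, 0.0523 and 0.0567), with an offset of 50 in the background correction (adjusted p = 0.0816) and with trend and robust variances in eBayes (adjusted p = 0.120). Esophagus array 4 read 8.40 against 14.43 and 15.38 for arrays 1 and 2. The difference was -9.67 without it, -6.66 without esophagus array 1 and -6.18 without esophagus array 2. *Ctsd*, the lysosomal cathepsin D and the other gene called toward the esophagus (difference -0.95, limma adjusted p = 0.0384), kept its call only without esophagus array 4 when single arrays were left out (adjusted p = 0.0742 to 0.152 without any other array), and lost it with the mouse as a block (adjusted p = 0.0568) and with an offset of 50 (adjusted p = 0.0715). *Napsa* was 1 of the 4 counted toward the stomach although no array had it well above background, and it stayed called only without stomach array 1 when single arrays were left out (adjusted p = 0.0620 to 0.129 without any other array). *Psen2*, a presenilin and the other of these 4 (difference 1.40, limma adjusted p = 0.0198), lost its call without stomach array 1, stomach array 2 or esophagus array 2 (adjusted p = 0.0935, 0.0699 and 0.0562) and on the processed signal (adjusted p = 0.0830). The 6 calls of this list became 3 without stomach array 1 or esophagus array 1, and 2 without stomach array 2 or esophagus array 2.

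Of 5 other acid lipase genes, 3 were called toward the esophagus and 1 toward the stomach, with a median of -1.04. *Lipm*, an epidermal lipase, was at least 13.3-fold higher in esophageal organoids (log2 difference -3.74, standard error 0.54, limma adjusted p = 0.0032). Without esophagus array 2 the difference was -3.02, and it ran from -2.70 (offset of 50) to -6.71 (processed signal) over the settings. *Lipk*, of the same epidermal group, was at least 9.77-fold higher there (limma adjusted p = 0.0216), but this call was lost without stomach array 1, stomach array 2, esophagus array 1 or esophagus array 2 (adjusted p = 0.0973, 0.0827, 0.0547 and 0.0704), with an offset of 50 (adjusted p = 0.0886) and with trend and robust variances in eBayes (adjusted p = 0.0669). Without esophagus array 4 its difference went from -3.38 to -4.35. *Lipa*, the lysosomal acid lipase, was higher in the stomach by 1.61 (standard error 0.22, limma adjusted p = 0.0026). *Lipo1*, the other gene called toward the esophagus (difference -1.04, limma adjusted p = 0.0229), was not called with the mouse as a block (adjusted p = 0.0540), with the slide as a block or without esophagus array 4, which are the same fit (adjusted p = 0.0582), or without esophagus array 2 or stomach array 2 (adjusted p = 0.0807 and 0.0604). The 4 calls of this list became 2 without stomach array 2 or esophagus array 2. The probes of this family were not checked for binding to near-identical paralogs.

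Among 7 further genes of the chitinase family, 1 was called. *Chit1*, the other active chitinase of mammals, was higher in esophageal organoids, with a difference of -4.85 (standard error 0.85, limma adjusted p = 0.0082). Its esophagus mean was 12.81 ± 1.36 (SD, n = 3) and its stomach mean 7.96 ± 1.48 (SD, n = 3). The difference was -4.22 without esophagus array 1, -5.57 without esophagus array 4 and -5.70 without stomach array 4. The family's median was 0.39. *Chil1*, not called without a block (difference 1.83, adjusted p = 0.0938), was called higher in the stomach with the mouse as a block (limma adjusted p = 0.0292), and without stomach array 4 the calls in this family numbered 2.

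Of 10 genes for cobalamin uptake and transport beside *Gif*, 2 were called, both higher in the stomach, and the median difference was 0.08. *Tcn2*, the carrier of cobalamin in blood, differed by 2.36 (standard error 0.38, limma adjusted p = 0.0057) and *Lmbrd1*, which exports it from lysosomes, by 0.93 (standard error 0.18, limma adjusted p = 0.0128). The latter was not called on the software's processed signal scaled to the 75th percentile (adjusted p = 0.105). *Cubn* and *Amn*, whose products take up the intrinsic factor complex, were not called.

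The secretory programme of zymogenic cells, listed as 9 genes, had 4 members called, all toward the stomach, with a median of 0.24. *Tnfrsf19* (Troy), a marker of a subset of chief cells, read 8.33, 8.51 and 9.94 in stomach organoids and was highest in mouse 4, and it differed by 2.14 between tissues (standard error 0.40, limma adjusted p = 0.0113). Its dimmer probe passed the background mark on 1 stomach array and no esophagus array and was not called (difference 0.23, limma adjusted p = 0.616). *Xbp1*, a regulator of the secretory apparatus and of *Bhlha15*, was higher in the stomach by 1.79 (standard error 0.17, limma adjusted p = 2.85e-04). *Ccpg1*, a receptor for turnover of the endoplasmic reticulum, was higher by 1.62 (standard error 0.17, limma adjusted p = 6.77e-04). *Creld2*, a gene of the endoplasmic reticulum, was the other call (difference 0.84, limma adjusted p = 0.0403). When single arrays were left out it stayed called only without esophagus array 4 (adjusted p = 0.0812 to 0.120 without any other array), and it was not called on the processed signal (adjusted p = 0.417). *Rab3d* and *Rab26*, granule genes that BHLHA15 is known to control, had differences of 0.22 and -0.11 and were not called.

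Markers of the other cells a stomach organoid could hold were read beside these genes. All 5 neck cell markers and all 4 pit cell markers were higher in the stomach. *Tff2*, the trefoil peptide of neck cells, was at least 7144-fold higher, and *Gkn2*, a pit cell gene, at least 4764-fold. The log2 of the summed intensity of the neck cell list ran from 18.48 to 18.73 over the stomach arrays and from 7.88 to 8.01 over the esophagus arrays, and that of the pit cell list from 18.46 to 18.77 against 6.97 to 7.23. These sums are carried by the brightest genes of each list, *Tff2* and *Gkn3* among the neck cell markers and *Tff1* and *Gkn2* among the pit cell markers, and say little of dimmer ones such as *Muc6*. Of 8 parietal cell markers, 3 were called higher in the stomach, led by the potassium channel gene *Kcnq1* with 7.78, whereas *Atp4b*, a defining subunit of the proton pump, stayed at background on all 6 arrays. *Atp4a*, the other subunit, was at least 1.99-fold higher (limma adjusted p = 0.0177), a call lost without stomach array 2 (adjusted p = 0.0652). None of the 6 endocrine markers was called (limma), and none had an unadjusted p under 0.05.

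Pancreatic acinar genes share the zymogen programme of chief cells, and 2 of 10 were called. *Clps*, encoding colipase, differed by 6.59 (standard error 0.19, limma adjusted p = 5.43e-07) and *Cela1*, an elastase, was higher there by at least 9.73-fold. Of the 10, 7 were not well above background on any array, *Ptf1a*, *Cpa1*, *Prss2* and *Pnlip* among them. On the processed signal *Rbpjl*, also among these 7, was called higher in the stomach (difference 1.41, limma adjusted p = 0.0213). The part of any other cell type in the differences of the chief cell genes was not tested.

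The tissue labels were checked on epithelial markers. *Krt5* and *Krt13*, keratins of squamous epithelium, were called higher in the esophagus, and their brightest probes passed the background mark on 1 and 2 of the 3 stomach arrays. The other *Krt13* probe passed it on all 3 stomach arrays, with a mean of 8.09 there. *Krt8*, of columnar epithelium, was called higher in the stomach, and passed it on 1 of the 3 esophagus arrays. Of the 6 columnar markers, 5 were called higher in the stomach. *Krt18*, *Krt19* and *Epcam* were well above background on all 3 esophagus arrays too, with means of 11.10, 10.99 and 11.33 there. *Epcam* was not called (difference 0.72, limma adjusted p = 0.0623). From the scanner intensities with an offset of 16, *Epcam* was called higher in the stomach (difference 0.74, limma adjusted p = 0.0452). *Trp63*, a squamous transcription factor, favored the esophagus on 3 of its 4 probes, by at least 55.7-fold on each. The remaining probe, which stands for *Trp63* in the lists, was the brightest only by its mean over all 6 arrays. It was higher in the stomach by 1.22 (limma adjusted p = 0.0249), with means of 11.20 there and 9.99 in the esophagus. That probe lost its call without stomach array 1, stomach array 2, esophagus array 1 or esophagus array 2 (adjusted p = 0.110, 0.0878, 0.0615 and 0.0734), on the processed signal (adjusted p = 0.105) and with an offset of 50 (adjusted p = 0.0556). None of the 12 listed markers of fibroblasts, smooth muscle, immune or endothelial cells was called (limma), and 1, *Cdh5*, had an unadjusted p under 0.05 although no array had it well above background. *Acta2*, *Cd68*, *Cd3e* and *Pecam1* passed the background mark on all 6 arrays, so the lack of a call does not mean absence. Without esophagus array 4, *Cd68* was called higher in the esophagus (adjusted p = 0.0498). As to the chief cell label, *Pgc*, *Gif* and *Bhlha15* were higher in stomach organoids, and *Pga5*, *Lipf* and *Chia1* gave no signal above background.

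**Figure D4:**
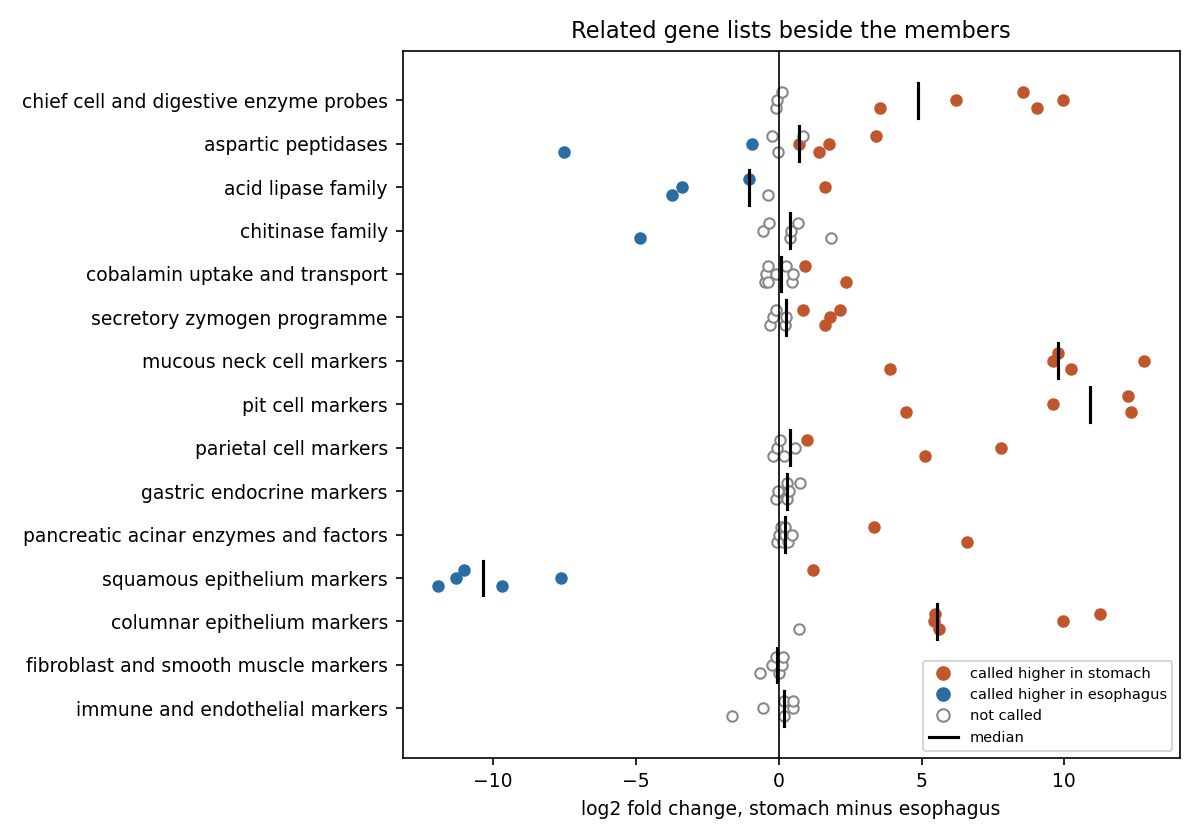
Log2 difference, stomach minus esophagus, of the 8 chief cell and digestive enzyme probes and of the genes of the 14 related lists (brightest probe per gene), with the median of each as a black bar and called genes in color. The members fall into a group near 0 and a group at 3.56 or above.

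By Pearson correlation alone, the genes nearest in pattern to the brighter *Pgc* probe were *Bsg*, *Il18r1*, *Cldn2*, *Igsf23* and *Gata4*, each with Pearson's r of at least 0.999 over 6 arrays. They were ranked among 17542 gene names that passed the background mark on every stomach array by their brightest probe. The 6 points form 2 clusters, the tissues, and 1260 of the other genes (7.18%) had r above 0.95 with it, so the order among them is a description of these arrays only. Except for *Bsg*, these genes were at background on all esophagus arrays. *Gata4*, a transcription factor of the foregut, read 12.40, 12.55 and 13.37 in stomach organoids, at least 255-fold above esophageal organoids. *Cldn2*, a claudin of tight junctions, read 12.88, 13.15 and 13.90 and was at least 336-fold higher. *Bsg*, encoding basigin, differed by 2.61 and was well above background on all arrays.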

How the data were processed

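RNA of mouse stomach and esophageal organoids was read on 6 single-color arrays by the authors with Agilent Feature Extraction (11.5.1.1). The deposited scanner files hold spot and background intensity, not normalized between arrays. The deposited log2 values were background corrected and quantile normalized by the authors. Normexp with an offset of 15 and quantile normalization gave them within 0.0726, and their 2029 empty cells were outlier spots. The offset and any adjustment of p-values are not given in the sources used here.

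Groups came from the labels. Spots of a probe were averaged. In R 4.3.3 with limma 3.58.1, lmFit and eBayes compared the tissues without a block, and the code was tested on simulated data. The labels give the same mouse numbers in both tissues, taken here as the same animals. Deviations of the arrays of a mouse correlated with r = 0.02, 0.01 and -0.01, and the mouse as a block was an alternative. P-values measure the spread between these arrays, 3 per tissue, and their number limits the precision. Members and lists were chosen with earlier results of these data known. Named were every member, up to 3 called genes per list, label markers and the 5 genes most like *Pgc*. Genes outside this rule, named for their role or for the order of the stomach arrays, were chosen after their values were seen. Promoters come from RefSeq. Alternatives were scanner intensities with normexp offsets of 16 and 50, processed signal, a filter on dim probes, blocks for mouse and slide, eBayes with trend and robust, gene means, unadjusted p, 2-fold and leaving out each array.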

Additional observations from a re-analysis of the deposited data

How the results depend on the processing

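The 5 called probes stayed called, higher in the stomach, under the 15 alternatives that test probes, with adjusted p up to 0.0038 (limma). In the remaining one, with the probes of a gene averaged, their 4 genes were called and *Pgc* differed by 7.63. Not all of these alternatives are separate checks. Unadjusted p and 2-fold reuse the main fit and could not lose these calls, and the slide block repeats a fit that leaves out an array. The filter on dim probes admitted the *Pgc*, *Ctse* and *Gif* probes only through their stomach arrays, so their calls there add nothing. The fitted differences moved with the background correction and scaling: they ran from 7.94 (offset of 50) to 11.93 (processed signal) for the brighter *Pgc* probe, 8.83 to 12.76 for *Ctse*, 7.18 to 11.04 for *Gif* and 2.99 to 4.33 for *Bhlha15*, so the folds of probes near background in one tissue are not well determined. On the processed signal the uncalled differences changed sign, to -0.11 for *Pga5*, 0.048 for *Lipf* and 0.17 for *Chia1*, and the median of all probes moved to -0.19. The cause was not tested.

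Over all probes, 6675 were called. Without adjustment of p the count was 10096, and leaving out an array it ran from 4091 (without stomach replicate 1) to 7415, with 4152 without stomach replicate 2. The 42 called genes of the related lists became 33 to 42 when an array was left out. With the mouse as a block for the pairing, 6153 probes, the same 5 member probes and 40 list genes were called. *Ctsd*, *Napsa* and *Lipo1* lost their call and *Chil1* gained one, and the block changed no other call in the lists. The slide block equals leaving out the esophagus array of mouse 4, since the second slide held only that array, and gave 6289. Signal near background limits what *Pga5*, *Lipf* and *Chia1* can show.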
